A study of Rattus norvegicus with 39 samples.

Results

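Transfer RNAs for threonine were followed in rat sperm after the males had been given a testicular toxicant. The set held every row of the tRNA count table named as a threonine (Thr) tRNA gene, 17 of 402 rows. Rows with identical counts in all libraries were counted as 1, which left 14 of 242 distinct rows. The fit of single rows still held every row. They fell into 3 anticodons, written here as in the table: ThrAGT with 9 rows (7 distinct), ThrCGT with 3 rows (all distinct) and ThrTGT with 5 rows (4 distinct). No row of another amino acid had the counts of a threonine row.

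The libraries hold small RNA of spermatozoa from the cauda epididymis of wild-type male Fischer rats aged 11 to 12 weeks. Males received ethylene glycol monomethyl ether (EGME, a solvent known to damage spermatocytes) by oral gavage once a day for 5 days, and 5 weeks without exposure followed. The 4 groups are the water vehicle control (EGME0, 10 libraries), 50 mg/kg/d (EGME50, 10 libraries), 60 mg/kg/d (EGME60, 9 libraries) and 75 mg/kg/d (EGME75, 10 libraries). The libraries were made from 10 ng of total RNA and run on 13 chips of 3 libraries each. The labels do not say that each library came from a separate male, so the p-values measure the spread between these samples.

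A tRNA for threonine is charged by threonyl-tRNA synthetase and reads the codons that begin with AC. In the ThrAGT tRNA, the adenosine at the first anticodon position, position 34, is converted to inosine, which widens the set of codons it can read. ThrCGT reads the codon ending in G, and ThrTGT reads codons ending in A or G. Like other tRNAs that read codons beginning with A, tRNA-Thr carries a modified adenosine (t6A) at position 37, next to the anticodon. Mature sperm is known to be rich in tRNA fragments, many of which are gained in the epididymis. The table counts reads per tRNA gene and does not separate fragments from whole tRNAs.

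The rows lay on chromosomes 1 (1 row), 10 (6 rows), 12 (1 row), 15 (2 rows) and 17 (7 rows) of the Rnor_6.0 build, according to their names. Identical counts crossed chromosomes. The ThrAGT rows trna14184 on chromosome 1, trna10836 on chromosome 10 and trna2456 on chromosome 10 could not be told apart, and neither could the ThrTGT rows trna1312 on chromosome 10 and trna5100 on chromosome 15. In the following, trna14184 and trna1312 stand for these sets. RefSeq lists 44 threonine tRNA genes for rat in the GRCr8 build, 7 of them on chromosome 17. That is another build, and its genes were not matched to the rows.

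Levels are given as CPM, a library's counts scaled to 1000000 tRNA counts, with identical rows counted once. These totals ran from 52085 to 5545434 counts, and threonine counts from 347 to 58417. The shallowest library was EGME75 replicate 24, in which 3 counts correspond to 57.6 CPM, so its zeros and low values carry little information. In EGME75 replicate 7, ThrAGT stood at 3216 CPM, the highest level of all libraries. Beside the tRNA values, the miRNA content of the libraries also differed between EGME0 and EGME75, given as CPM of the miRNA counts. Median miRNA counts per library were 15324.5 at EGME0 and 3201.5 at EGME75, so the EGME75 sums are less certain. The 5 spermatid and sperm miRNAs (miR-34b-3p, miR-34b-5p, miR-34c-3p, miR-34c-5p and miR-449a-5p) had a median sum of 263173 at EGME0 and 133064 at EGME75 (range 197624 to 330892 and 64748 to 220530). The lowest of these sums, in EGME75 replicate 24, was 9 of 139 counts. Of the 5, miR-34b-5p did not fall (means of 13048.5 at EGME0 and 13408.1 at EGME75). The blood list (6 of 7 in the table) had a median of 1136 at EGME0 and 7885 at EGME75 (0 to 3432 and 2478 to 48241), with miR-144-3p at 0 in both groups. Means at EGME75 and EGME0 were 4676 and 267.2 for miR-451-5p, 4591 and 358.9 for miR-150-5p and 3120 and 567.0 for miR-223-3p. In the same order miR-142-3p was also higher at EGME75 (68.3 and 26.5), while miR-142-5p was lower (127.2 and 226.8). The 5 epithelial miRNAs (miR-200 family and miR-141) had medians of 8719 and 24930 (6249 to 12877 and 18091 to 47724), and the 4 muscle miRNAs 16677 and 36987 (9539 to 32667 and 11152 to 98000). Most of the muscle sum was miR-145-5p (means of 15077 at EGME0 and 42425 at EGME75). In the same order the striated muscle members had lower means at EGME75, miR-133a-3p with 1553 and 320.1 and miR-1-3p with 253.4 and 0. EGME0 replicate 10 was the only library with all 4 muscle miRNAs above 0, and it held the highest control sum (32667). The control means of the striated muscle members may therefore rest on few libraries. The highest blood sum belonged to EGME75 replicate 7, with 48 of its 995 miRNA counts. The part of these shifts in the tRNA results was not tested, and in these bulk samples fewer cells of a type and less RNA per cell cannot be told apart.

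Threonine tRNAs made up a small share of the tRNA counts, and the share was higher at the highest dose. The mean share was 0.717% ± 0.269% (SD, n = 10) at EGME0, 0.784% ± 0.425% (n = 10) at EGME50, 0.927% ± 0.370% (n = 9) at EGME60 and 1.36% ± 0.576% (n = 10) at EGME75. The groups overlapped: 5 of 10 EGME75 libraries lay above the highest control and 9 of 10 above the control median. With every identical row counted, the mean share was 0.603% at EGME0 and 0.900% at EGME75. Of the sum of the 4 deposited tables the share was 0.219% at EGME0 and 0.299% at EGME75. A share of the tRNA counts also depends on the other tRNAs. SerGCT had a mean of 312867 CPM at EGME0 and 147750 CPM at EGME75. Scaled by library totals alone, the median log2 fold change of all anticodons at EGME75 was 0.46. The higher share is therefore not by itself a rise of the threonine tRNAs. Most of the threonine counts belonged to ThrTGT, with a mean of 90.8% at EGME0 and 87.5% at EGME75. ThrAGT held 2.07% ± 0.622% of the threonine counts at EGME0 and 6.98% ± 3.795% at EGME75.

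ThrTGT was the highest of the 3 anticodons in every library of every group. ThrAGT was below ThrCGT in all 10 control libraries and all 10 EGME50 libraries, above it in 1 of 9 EGME60 libraries and above it in 7 of 10 EGME75 libraries. At EGME75 the levels of ThrAGT and ThrCGT overlapped, so their order there is not fixed. The order is one of read counts and not of counts per length, since the table gives no lengths.

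ThrAGT, the tRNA read with inosine, rose with dose. Its level was 92.4, 139.7 and 181.5 CPM (lowest, median and highest library) at EGME0. At EGME50 the same 3 values were 87.1, 183.1 and 274.0 CPM, and at EGME60 86.9, 325.1 and 810.3 CPM. At EGME75 they were 326.4, 787.1 and 3216 CPM. All 10 EGME75 libraries lay above the highest control, whereas EGME60 and EGME50 libraries lay on both sides of the control range (7 of 9 and 5 of 10 above the highest control, 1 below the lowest in each group). The shift at EGME75 was therefore carried by every library, and that at EGME60 by most of them. ThrAGT was not the only anticodon separated in this way. The lowest EGME75 library was also above the highest control for ValAAC (11698 and 9512 CPM) and GluCTC (2873 and 2592 CPM). For SerAGA (37982 and 38325 CPM) and IleAAT (8570 and 10321 CPM) the highest EGME75 library was below the lowest control.

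In the edgeR fit over 47 anticodons with TMM scaling (trimmed mean of M-values, which sets a typical anticodon to no change), ThrAGT was 4.98-fold higher at EGME75 than at EGME0 (log2 fold change 2.32, SE 0.28, adjusted p = 1.02e-08). No other anticodon had a higher value at that dose. At EGME60 ThrAGT was 2.12-fold higher (log2 fold change 1.08, SE 0.28, adjusted p = 0.00742), behind LysCTT (1.31) and GluCTC (1.12). At EGME50 the log2 fold change was 0.27 (SE 0.27, adjusted p = 0.904, 95% interval -0.26 to 0.79), which did not pass. Anticodons called higher made up 23.4% of those tested at EGME75, 14.9% at EGME60 and 0.0% at EGME50, and those called in either direction 53.2%, 31.9% and 0.0%. With chip as a fixed block the value at EGME75 was 1.93 (adjusted p = 6.46e-06), while that at EGME60 was 0.86 and lost its call (adjusted p = 0.0646). Without EGME75 replicate 7 the value at EGME75 was 2.01 (adjusted p = 1.85e-08).

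**Figure D1:**
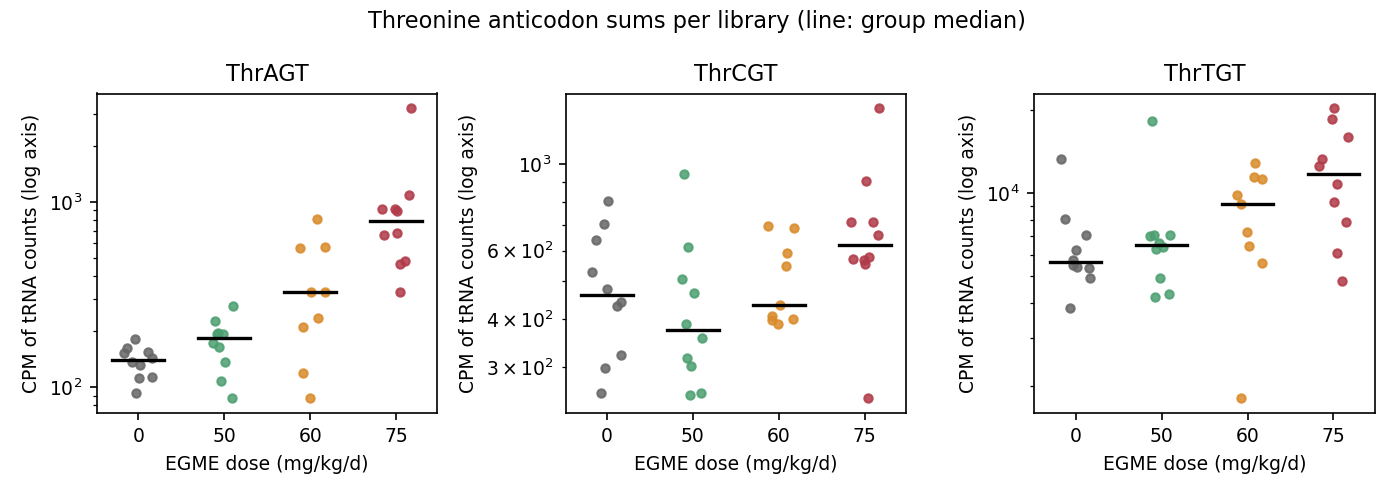
Level of each threonine anticodon per library, in CPM of tRNA counts on a log axis, against the EGME dose in mg/kg/d. Each point is 1 library and each line a group median, which for ThrAGT was 139.7 CPM at 0 and 787.1 CPM at 75 mg/kg/d. The ThrAGT points at 75 mg/kg/d all lie above those of the control, while the ThrCGT and ThrTGT points overlap between the groups.

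The steps between neighbouring doses were also tested for ThrAGT. It was higher at EGME75 than at EGME60 by a log2 fold change of 1.23 (SE 0.28, adjusted p = 0.0028), a step at which 12.8% of anticodons were called higher. With chip as a block this step was 1.07 and did not pass (adjusted p = 0.0823), nor did any other anticodon. Between EGME50 and EGME60 ThrAGT was higher by 0.82 (SE 0.27, adjusted p = 0.0447). An anticodon of another amino acid had a higher value at that step (0.83) without a call. ThrAGT was the only anticodon called higher there (2.13%, with 10.6% called in either direction). The call was lost with chip as a block (0.82, 0 of 47 anticodons called), with RLE factors (relative log expression, 0.81), with library totals (1.04), with limma-voom (0.70) and with no filter (0.87). It also rested on single libraries and was lost in 10 of 19 fits without 1 library, with the lowest value, 0.63, without EGME60 replicate 22. Over all 4 doses the slope of ThrAGT was 2.04 log2 units per 75 mg/kg/d (SE 0.32, adjusted p = 4.06e-06), where 21.3% of anticodons were called higher and 48.9% in either direction.

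ThrCGT, the tRNA for the codon ending in G, was not called at any dose. Its lowest, median and highest levels were 257.5, 459.6 and 802.7 CPM at EGME0, and 249.6, 618.3 and 1398 CPM at EGME75. The ranges overlapped, with 2 of 10 EGME75 libraries above the highest control and 1 below the lowest. The log2 fold change was -0.21 (SE 0.19) at EGME50, -0.14 (SE 0.20) at EGME60 and 0.11 (SE 0.19) at EGME75, with edgeR adjusted p = 0.904, 0.713 and 0.677. At EGME75 the 95% interval ran from -0.27 to 0.49.

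ThrTGT, the most abundant of the 3, was not called either in that fit. Its lowest, median and highest levels were 3854, 5616 and 13296 CPM at EGME0, and 4821, 11689 and 20332 CPM at EGME75. Of the 10 EGME75 libraries 9 lay above the control median and 4 above the highest control, which was EGME0 replicate 34. The log2 fold change was 0.06 (SE 0.23) at EGME50, 0.11 (SE 0.23) at EGME60 and 0.42 (SE 0.23) at EGME75, with edgeR adjusted p = 0.904, 0.792 and 0.114. At EGME75 the 95% interval ran from -0.03 to 0.86, and the call depended on single libraries: without EGME0 replicate 34 the value was 0.57 (adjusted p = 0.0274), and without EGME75 replicate 24 it was 0.59 (adjusted p = 0.0316).

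The scaling decided the calls of ThrCGT and ThrTGT at EGME75. With library totals alone ThrCGT was at 0.52 (adjusted p = 0.0487) and ThrTGT at 0.87 (adjusted p = 0.00481), both called higher. That scaling also moved the median of all anticodons from 0.04 to 0.46, with 28 called higher and 10 lower in place of 11 and 14. Relative to the median of all anticodons, ThrCGT stood at 0.06 with TMM and 0.05 with library totals, and ThrTGT at 0.37 and 0.41. ThrAGT stood at 2.27 and 2.36 above that median and was called with both.

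Ratios between the anticodons within a library do not depend on scaling. The log2 ratio of ThrAGT to ThrCGT was -1.76 ± 0.43 (SD, n = 10) at EGME0, -1.28 ± 0.58 (n = 10) at EGME50, -0.76 ± 0.85 (n = 9) at EGME60 and 0.30 ± 0.52 (n = 10) at EGME75. At EGME75 it ran from -0.57 to 1.20 and at EGME0 from -2.57 to -0.92, so the 2 groups did not overlap. The ratio of ThrAGT to ThrTGT likewise did not overlap, with -6.44 to -4.83 at EGME0 and -4.55 to -2.31 at EGME75. How many ratios between other anticodons were separated in this way was not counted. The separation is therefore not shown to be particular to ThrAGT.

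Over 9 ratio tests (two-sided permutation tests, Benjamini-Hochberg adjusted), ThrAGT gained on ThrCGT by 2.05 log2 units at EGME75 (10 of 10 libraries above the control median, permutation p = 2e-05, adjusted p = 9e-05). It gained on ThrTGT by 1.71 at EGME75 (10 of 10, permutation p = 2e-05, adjusted p = 9e-05). Both p-values are the smallest these permutations can give. At EGME60 the gain on ThrCGT was 0.99 (7 of 9, exact permutation p = 0.00541, adjusted p = 0.0162), and that on ThrTGT was 0.82 and did not pass (7 of 9, exact permutation p = 0.0268, adjusted p = 0.0602). At EGME50 the differences were 0.48 and 0.20 (permutation adjusted p = 0.0945 and 0.459). ThrCGT against ThrTGT differed from control by -0.28, -0.17 and -0.34 at the 3 doses, none past the threshold (smallest adjusted permutation p = 0.286). Within chips the gain on ThrTGT at EGME60 was 0.81 and passed (adjusted permutation p = 0.00427), and the gains at EGME75 were 1.89 and 1.75 (both adjusted permutation p = 0.00045).

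**Figure D2:**
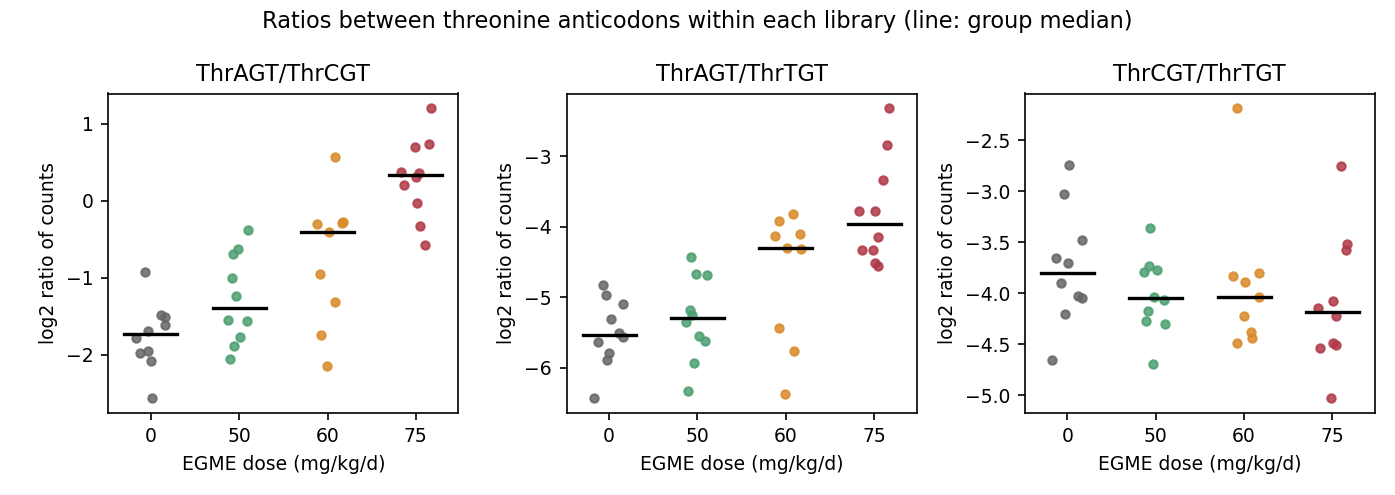
Log2 ratio of counts between threonine anticodons within each library, against the EGME dose in mg/kg/d. Each point is 1 library and each line a group median. Both ratios with ThrAGT lie higher at 75 mg/kg/d than in any control library, and the ratio of ThrCGT to ThrTGT overlaps between the groups.

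Single rows were tested over the whole tRNA table, and 13 of the 14 distinct threonine rows passed the filter on low counts. The exception, trna5597-ThrAGT on chromosome 12, had 5 counts in 3 of 39 libraries. At EGME50 it had no count, which allows up to 0.0969 CPM over that group's pooled counts (3 counts, counting error only). Of the 13 rows tested, edgeR called 8 at EGME75, 3 at EGME60 and 0 at EGME50, and 8 for the slope on dose. All of these calls were higher. Over all distinct rows tested, 26.5%, 13.2%, 0.0% and 25.4% were called higher in these 4 comparisons, and 64.0%, 31.2%, 0.0% and 61.9% in either direction. With identical rows collapsed before the fit, 9, 3, 0 and 9 threonine rows were called in the same order. Of all distinct rows 123, 41, 0 and 116 were then called, in place of 121, 59, 0 and 117. At EGME50 no threonine row reached an unadjusted p below 0.05, and DESeq2 and limma-voom called 0 as well. Of all distinct rows 5.29% had such a p there, and DESeq2 called 0.529%.

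The median log2 fold change of the 13 rows at EGME75 was 1.23, beside -0.21 for all 189 distinct rows tested. It was 1.80 for the 6 ThrAGT rows (5 called), 1.23 for the 3 ThrCGT rows (2 called) and 0.04 for the 4 ThrTGT rows (1 called). At EGME60 the 3 medians were 0.44, 0.03 and -0.11. The threonine rows called therefore came from all 3 anticodons, although only ThrAGT was called as a sum.

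The most abundant ThrAGT row, trna3878 on chromosome 17, had levels of 47.0, 91.4 and 117.5 CPM (lowest, median and highest) at EGME0. At EGME60 it had 51.3, 198.0 and 521.3 CPM, and at EGME75 249.6, 481.4 and 2246 CPM. All 10 EGME75 libraries exceeded the highest control. The log2 fold change was 0.99 (SE 0.27, adjusted p = 0.00868) at EGME60 and 2.21 (SE 0.27, adjusted p = 3.07e-08) at EGME75. The set of 3 identical rows named trna14184 changed most. Its levels were 5.46, 14.5 and 22.8 CPM at EGME0, 10.4, 54.1 and 190.8 CPM at EGME60 and 76.8, 141.2 and 594.8 CPM at EGME75. Again all 10 EGME75 libraries lay above every control. How many of all distinct rows were separated in this way was not counted, so the separation is not shown to be particular to these rows. Of all distinct rows tested, 26.5% were called higher at EGME75 and 64.0% in either direction. The log2 fold change was 1.78 (SE 0.35, adjusted p = 5.31e-04) at EGME60 and 2.92 (SE 0.36, adjusted p = 2.49e-08) at EGME75.

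The remaining ThrAGT rows were rarer. trna1627 on chromosome 17 had a mean of 11.6 counts per library (group means of 5.4, 6.2, 11 and 23.6 in order of rising dose). It reached the minimum mean of 10 counts for naming only through the EGME75 libraries, where it was high. Its change at EGME75 is therefore given as a description and not as separate support for a rise. Its medians were 1.69 CPM at EGME0 and 8.41 CPM at EGME75, with 9 of 10 EGME75 libraries above the highest control. Its log2 fold change at EGME75 was 2.22 (SE 0.46, adjusted p = 7.03e-05), and 1.63 without EGME75 replicate 7, which held 73.9 CPM. Of the other ThrAGT rows, trna2465 on chromosome 10 and trna3843 on chromosome 17 rose by log2 fold changes of 1.39 and 1.08, and trna1674 on chromosome 17 was at 0.62 and was not called (edgeR adjusted p = 0.126). These 3 rows fall outside the naming rule and were picked after their values were seen.

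The ThrCGT sum held rows that differed. Its dominant row, trna3238 on chromosome 10, had a mean of 97.3% of the ThrCGT counts at EGME0 and 93.1% at EGME75. Its levels were 248.2, 443.2 and 797.2 CPM at EGME0 and 249.6, 575.3 and 1182 CPM at EGME75, and the groups overlapped. The log2 fold change at EGME75 was -0.16 (SE 0.18, adjusted p = 0.424), and its sign depended on scaling, with 0.18 for library totals alone and 0.24 when identical rows were collapsed before the fit. The 2 other ThrCGT rows, both on chromosome 17, were called higher. trna3822 had medians of 7.75 CPM at EGME0 and 31.9 CPM at EGME75, with 8 of 10 libraries above the highest control and EGME75 replicate 24 at 0. Its log2 fold change was 1.62 (SE 0.31, adjusted p = 2.82e-05). For trna3826 the medians were 3.71 and 9.77 CPM, with 8 of 10 above the highest control, and the log2 fold change was 1.23 (SE 0.38, adjusted p = 0.00504). The call of trna3826 was lost with chip as a block (1.03, adjusted p = 0.0708).

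ThrTGT showed the same kind of split between an abundant row and a rarer one. The pair of identical rows named trna1312 held 85.5% of the ThrTGT counts at EGME0 and 72.5% at EGME75. Its levels were 3171, 4900 and 11817 CPM at EGME0 and 3541, 8600 and 13900 CPM at EGME75, with 2 of 10 above the highest control. In the fit over all rows its log2 fold change at EGME75 was 0.00 (SE 0.22, adjusted p = 0.997), against 0.37 (adjusted p = 0.107) when identical rows were collapsed first. trna875 on chromosome 15 had levels of 460.3, 801.2 and 1394 CPM at EGME0, 301.4, 1364 and 3452 CPM at EGME60 and 1253, 2934 and 6297 CPM at EGME75. At EGME75 9 of 10 libraries lay above the highest control, and at EGME60 4 of 9. Its log2 fold change was 1.31 (SE 0.27, adjusted p = 5.97e-05) at EGME75 and 0.74 (SE 0.27, adjusted p = 0.0336) at EGME60. The EGME60 call of trna875 was lost with chip as a block (0.60), with limma-voom (0.64) and without EGME0 replicate 10 or 33 or EGME60 replicate 22 or 38 (0.68 to 0.71). The 2 remaining ThrTGT rows, trna10906 on chromosome 10 and trna3824 on chromosome 17, were at -0.01 and 0.09 at EGME75 and were not called; they too fall outside the naming rule.

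**Figure D3:**
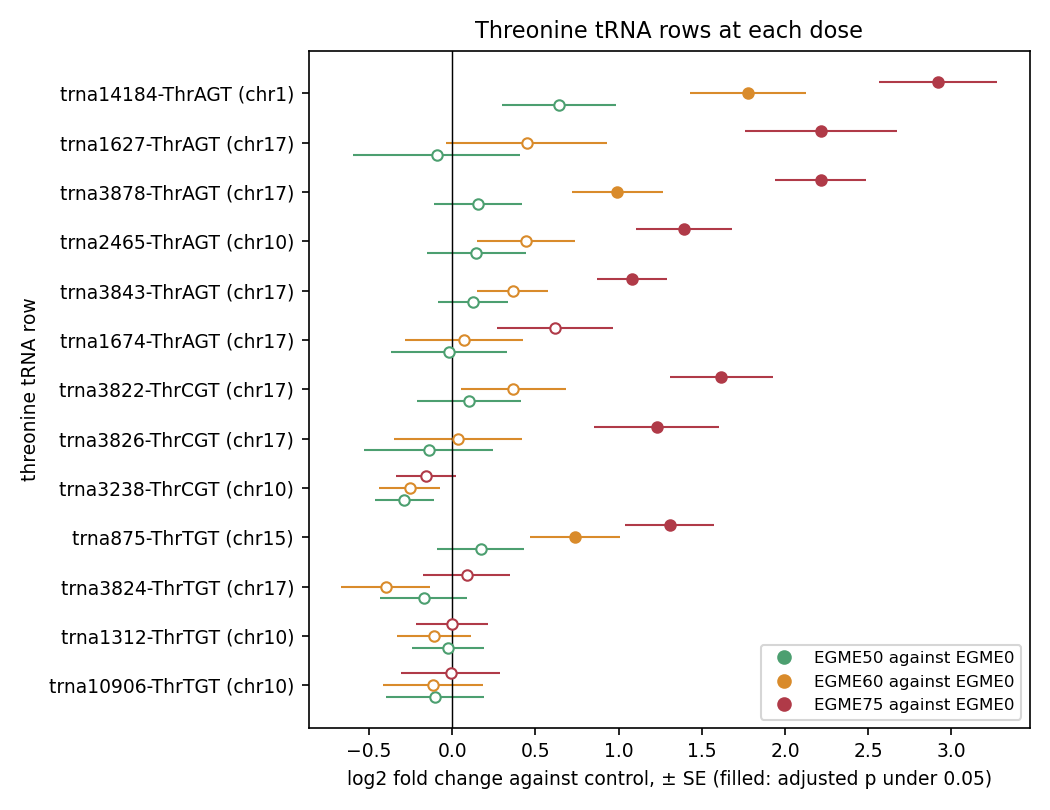
Log2 fold change against control, with SE, for the 13 threonine tRNA rows tested at each dose, grouped by anticodon. Filled points passed the adjusted threshold of 0.05. At 75 mg/kg/d the rows run from -0.16 for trna3238 to 2.92 for trna14184. The most abundant ThrTGT and ThrCGT rows lie near 0 in this fit, in which identical rows were not collapsed.

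The share of a row within its anticodon showed these splits without any scaling. trna875 held 13.5% ± 4.44% (SD, n = 10) of the ThrTGT counts at EGME0, 14.5% ± 3.68% (n = 10) at EGME50, 21.04% ± 5.64% (n = 9) at EGME60 and 26.7% ± 3.11% (n = 10) at EGME75. The EGME75 libraries ran from 21.6% to 30.97%, and the highest control stood at 23.5%. trna14184 held 10.9% ± 2.81% of the ThrAGT counts at EGME0 and 20.5% ± 2.78% at EGME75, where the lowest library (16.7%) was above the highest control (13.7%). trna3843 moved the other way, from 22.3% ± 5.47% at EGME0 to 10.5% ± 4.12% at EGME75, where EGME75 replicate 24 stood at 0.

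The 9 other rows whose counts averaged 10 or more were also compared with the most abundant row of their anticodon, as a log2 ratio per library. That leaves out trna1674 and trna5597. These 27 tests were added after the values had been seen. At EGME75, 5 ratios passed. trna875 gained 1.28 log2 units on trna1312 (10 of 10 libraries above the control median, permutation p = 6e-05, adjusted p = 0.00072). trna14184 gained 0.76 on trna3878 (10 of 10, permutation p = 6e-05, adjusted p = 0.00072). The shallowest library, EGME75 replicate 24, had 0 counts of trna3822, trna3826 and trna3843, so that its ratios for these rows were set by the pseudocount, and they are given without it. Against trna3238, trna3822 gained 1.55 (8 of 9, exact permutation p = 0.000238, adjusted p = 0.00161), against 1.58 with that library. trna3826 gained 1.19 on trna3238 (9 of 9, exact permutation p = 0.0013, adjusted p = 0.00702), against 1.37 with it, and 1 control library had 0 counts of trna3826. trna3843 lost against trna3878, with a difference of -1.02 (0 of 9 libraries higher than the median control, exact permutation p = 0.000152, adjusted p = 0.00136), against -1.16 with it, although both rows rose in the fit. Without that library the differences were 1.26 for trna875 and 0.74 for trna14184 (exact permutation, adjusted p = 0.00136 for both). At EGME60, 2 ratios passed, trna875 at 0.79 and trna14184 at 0.59 (8 of 9 libraries each, exact permutation, adjusted p = 0.0232 and 0.0347). None passed at EGME50, where the smallest adjusted permutation p was 0.204.

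**Figure D4:**
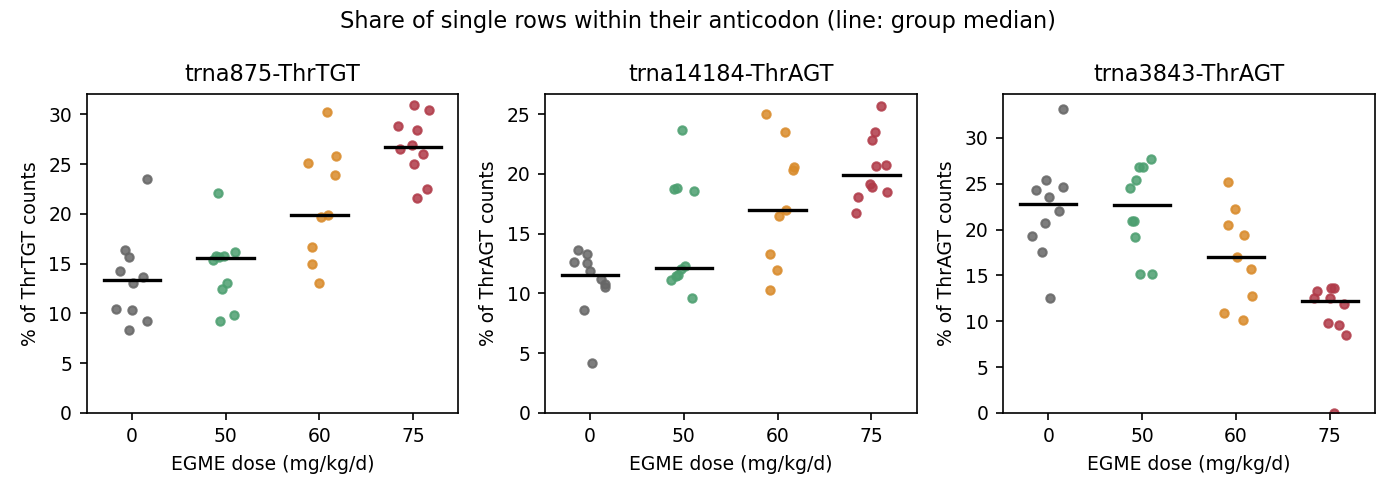
Share of 3 single rows in the counts of their anticodon, in percent per library, against the EGME dose in mg/kg/d. Each point is 1 library and each line a group median. The shares of trna875 and trna14184 are higher at 75 mg/kg/d (means 26.7% and 20.5%) than in the control (13.5% and 10.9%), and that of trna3843 is lower. The point at 0 for trna3843 is EGME75 replicate 24, the shallowest library.

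The dose steps gave fewer calls among the rows. Between EGME60 and EGME75, 7 of 13 threonine rows were called higher and 0 lower (8.47% of all distinct rows were called higher and 30.2% in either direction). With chip as a block 0 of them were called, and 0 of all distinct rows. Between EGME50 and EGME60, edgeR called 0 threonine rows, as it did for all rows tested (0.0%). At that step 3 threonine rows had an unadjusted p below 0.05, as did 26.5% of all distinct rows, and DESeq2 called 2, beside 9.52% of all distinct rows.

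Calls among other tRNAs that share a feature with the threonine tRNAs went in both directions. Of all 47 anticodons, 23.4% were called higher at EGME75 and 29.8% lower. Of the 7 other anticodons read with inosine at position 34, edgeR called 2 higher at EGME75, ValAAC (log2 fold change 1.03) and ProAGG (0.64), and 2 lower, IleAAT (-1.35) and SerAGA (-1.31). Their median was 0.41, beside 0.04 for all 47 anticodons. Of 10 other anticodons that read codons beginning with A, 9 were tested. LysCTT (1.79) and MetCAT (0.68) were called higher, SerGCT (-1.50), IleAAT (-1.35), ArgTCT (-0.99) and AsnGTT (-0.83) lower, and the median was -0.29. Next to the value of ThrAGT, those of LysCTT (1.79) and GluCTC (1.77) were the nearest.

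**Figure D5:**
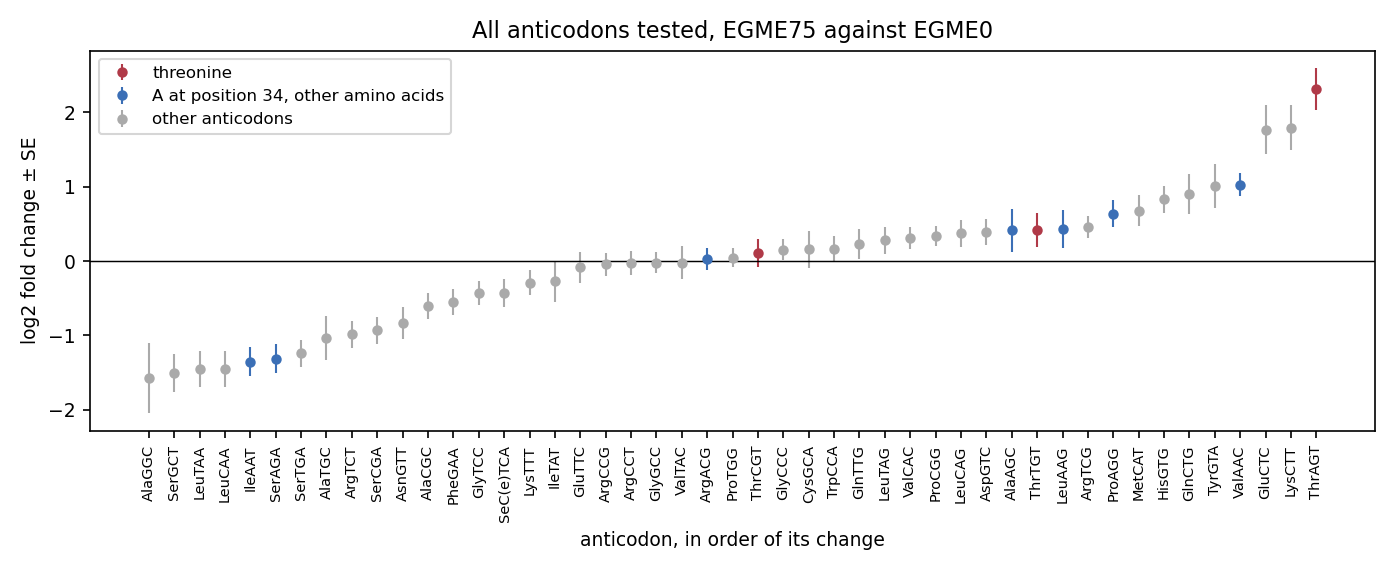
Log2 fold change with SE of all 47 anticodons tested, EGME75 against EGME0, in order of the change. Threonine anticodons are red, other anticodons with A at position 34 blue and the rest grey. ThrAGT has the highest value, 2.32, while ThrTGT (0.42) and ThrCGT (0.11) lie among the others.

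The anticodons whose levels followed each threonine anticodon most closely were found by the SD of the log2 ratio over the 39 libraries, among 43 anticodons of other amino acids. A small SD means that the ratio hardly varied. For ThrAGT these were ValAAC (SD 0.66), LysCTT (0.69) and HisGTG (0.76), all 3 called higher at EGME75. For ThrCGT they were ValCAC (0.35), ArgACG (0.38) and TrpCCA (0.41), none of them called there. For ThrTGT they were GlyCCC (0.45), LysTTT (0.45) and ArgTCG (0.46). ThrAGT was less like ThrTGT (0.96) and ThrCGT (0.98) than like any of its 3 nearest. All of these share libraries and depth, and the values are descriptions. The SD spans all doses, which favours anticodons that moved with dose in the same way. The calls of the nearest anticodons are therefore not a separate result.

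A second table, of RNAcentral entries, held 3 entries described as tRNA-Thr that passed the filter, without an anticodon in their names. The entry with the most counts had a control median of 439.8 CPM of the RNAcentral counts, and medians of 875.1, 426.1 and 216.4 CPM in order of rising dose. Its log2 fold change at EGME75 was -0.06 with TMM (adjusted p = 0.911) and -0.85 with RLE factors (adjusted p = 0.0474). The second had medians of 240.0 and 72.9 CPM at EGME0 and EGME75 and log2 fold changes of -0.42 (adjusted p = 0.423) and -1.27 (adjusted p = 0.0144). The third, at medians of 14.7 and 14.5 CPM, was at 1.43 with TMM (adjusted p = 0.045) and 0.47 with RLE factors (adjusted p = 0.411). At EGME75 37.8% of the RNAcentral entries were called with TMM. The share was 67.4% under RLE scaling and 51.6% under library totals, and the scaling moved the median of all entries from -0.62 with TMM to -1.38 with RLE factors. With library totals the second entry was called as well (-1.24, adjusted p = 0.0473), and the other 2 were not. None of the 3 entries was called at EGME75 under all 3 scalings.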

How the data were processed

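Small RNA of 39 rat sperm libraries was sequenced, and the authors deposited 4 tables of raw counts per feature, 1 column per library. The threonine rows came from the table of sense reads per genomic tRNA gene, whose file name gives the build Rnor_6.0. Per the submitters' processing notes FastQC, Bowtie and DESeq2 were used. Their roles and the handling of reads that map to several tRNA genes are not given in the sources used here, so rows may share reads. Row coordinates were not used here, and no tRNA sequence is printed because none of the files used holds one.

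The counts were tested with edgeR 4.0.16 (R 4.3.3, limma 3.58.1): TMM, filterByExpr by group, robust quasi-likelihood fits over all 39 libraries, two-sided tests and Benjamini-Hochberg adjustment over all 338 rows or 47 anticodon sums tested, at a threshold of 0.05. The row fit used all rows. Anticodon sums took rows with identical counts once, a choice made after the files had been read. Intervals are normal intervals from the SE. Ratios used a pseudocount of 1 and 100000 permutations, exact where a group had 9 libraries. Alternatives were DESeq2 1.42.0, limma-voom, RLE factors, library totals, no filter, chip as a block, depth as a covariate and leaving out each library. The edgeR step was tested on simulated data. Named were each anticodon, its most abundant row and up to 3 rows per direction with the largest called changes at EGME75 and a mean of at least 10 counts. Members, lists and tests were chosen with earlier results of these data known. All deposited columns matched a sample. Depth per library was 52085 to 5545434 counts, and the floors of 3 counts cover counting error only.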

Additional observations from a re-analysis of the deposited data

Results flagged for a closer look

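In 15 of 60 sets of group values checked, the highest or lowest library stood apart from the others by more than a gap test for outliers allows. For normally distributed values, chance alone gives about 1 such set in 20. Most of the flagged sets were CPM that were not log scaled, so that rate need not hold here. The sets also share libraries and rows. EGME75 replicate 7 stood apart in 6 of them: ThrAGT was at 3216 CPM there (next library 1094), trna3878 at 2246 CPM (next 702.5), trna14184 at 594.8 CPM (next 227.0), trna1627 at 73.9 CPM (next 21.1), trna3822 at 168.8 CPM (next 50.9) and trna3826 at 47.4 CPM (next 23.4). Without that library all of these rows kept their calls at EGME75, with log2 fold changes of 2.01 for ThrAGT, 1.93 for trna3878, 2.69 for trna14184, 1.63 for trna1627, 1.27 for trna3822 and 0.96 for trna3826.

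EGME50 replicate 35 was high for the whole set, at 19462 CPM (next 7713), for ThrTGT at 18289.5 CPM (next 7081), for trna1312 at 15280.2 CPM (next 5870.2), for trna875 at 2877 CPM (next 1557) and for ThrCGT at 944.7 CPM (next 613.9). EGME0 replicate 34 was the highest control for the whole set at 13977 CPM (next 8834), for ThrTGT at 13296 CPM (next 8034) and for trna1312 at 11817 CPM (next 6786). In EGME60 replicate 6 the log2 ratio of ThrCGT to ThrTGT was -2.19, and the nearest library was at -3.81.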

How the results depend on the processing

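The call of ThrAGT at EGME75 held under all alternatives run, with 1.93 to 2.82, and the 8 rows called there became 7 to 9. With chip as a block ThrAGT was at 0.86 for EGME60 and 1.07 for EGME75 against EGME60, both without a call, the ThrCGT slope was -0.0074, and the ThrAGT to ThrTGT ratio at EGME60 was 0.81 and passed. At EGME60 against EGME50 ThrAGT lost its call with RLE factors (0.81), library totals (1.04), no filter (0.87), limma-voom (0.70) and chip (0.82), and ThrTGT was -0.052 with all rows summed. Library totals gave 0.52 for ThrCGT and 0.87 for ThrTGT at EGME75, 0.74 for the ThrTGT slope, all called, and 0.051 for ThrCGT at EGME60. Of single rows, trna1312 was 0.064 (library totals) and 0.12 (collapsed) at EGME60 and -0.17 (chip) at EGME75, trna3238 was 0.024 (collapsed) at EGME60 and 0.18 (library totals) and 0.24 (collapsed) at EGME75, and trna3826 was -0.16 (limma-voom) at EGME60. At EGME60 the RNAcentral entry with the most counts was -0.037 (library totals), the next -0.24 (RLE) and -0.31 (library totals) and the rarest -0.63 and -0.75 (the same order), and the rarest was -0.055 at EGME75 with library totals. Over the sum of the 4 tables the threonine share was 0.219%, 0.237%, 0.222% and 0.299% from EGME0 to EGME75. Where no cause is named, the cause was not tested.

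Leaving out 1 library gave, for ThrAGT, 0.63 to 0.94 at EGME60 against EGME50 (call lost without EGME50 replicate 3, 4, 11, 19, 20, 27 or 28 or EGME60 replicate 14, 22 or 38); for ThrCGT, -0.0026 to 0.20 at that step and -0.051 to 0.15 for the slope; for ThrTGT, -0.11 to 0.21 at EGME50, 0.32 to 0.59 at EGME75, -0.054 to 0.22 at EGME60 against EGME50 and 0.26 to 0.50 for the slope (called without EGME0 replicate 34). The ThrAGT to ThrCGT ratio at EGME50 was 0.38 to 0.57 (called without EGME0 replicate 17 or EGME50 replicate 35) and the ThrAGT to ThrTGT ratio at EGME60 was 0.71 to 1.03 (called without EGME0 replicate 17 or EGME60 replicate 5, 13 or 30). Among rows, trna1312 was -0.17 to 0.12 at EGME60 and -0.091 to 0.32 at EGME75, trna3238 -0.23 to 0.10 at EGME75 and trna3826 -0.087 to 0.32 at EGME60. No paired analysis was possible because no 2 groups share a replicate number. Depth limits the rows with few counts most, above all in EGME75 replicate 24.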
